A study of Mus musculus with 8 samples.

Results

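The matrix metalloproteases (Mmp genes), the ADAMTS proteases (Adamts), the ADAMTS-like proteins (Adamtsl) and the tissue inhibitors of metalloproteases (Timp) were examined in the cochlea of miR-29a wild-type (WT) and miR-29a-/- (KO) mice. Within these families, members were taken by gene symbol alone, as every gene whose symbol starts with Mmp, Adamts or Adamtsl and a number, and Timp1 to Timp4. This gave 51 of the 21895 genes listed, namely 23 MMP, 19 ADAMTS, 5 ADAMTSL and 4 TIMP genes. Of these, 39 had a mean of at least 0.5 FPKM over the 8 libraries and were tested (15 MMP, 15 ADAMTS, 5 ADAMTSL and 4 TIMP genes), and 12 did not. FPKM divides the fragments of a gene by its transcript length and by the mapped total of the library, so levels of different genes can be compared per length.

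Total cochlear RNA was depleted of ribosomal RNA and sequenced in strand-specific libraries, 4 from WT mice (WT1 to WT4) and 4 from KO mice (KO1 to KO4). The mice had a C57BL/6 background and came from heterozygous breeding, so the KO animals lacked miR-29a in every tissue from the start, and both sexes were used. The series record gives an age of 21 days and the methods of the study give 2 months. Nothing in the labels says that each library came from a separate animal, so the p-values here measure the spread between these libraries. In whole cochlea, fewer cells of a type and less RNA per cell cannot be told apart.

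MMPs are zinc-dependent endopeptidases that cut collagens, elastin and other components of the extracellular matrix, and most are made as inactive proenzymes. ADAMTS proteases are secreted relatives that process procollagens or cleave proteoglycans such as aggrecan, whereas ADAMTSL proteins share their ancillary domains, lack the protease domain and sit on fibrillin microfibrils. TIMPs bind the active site of MMPs and of some ADAMTS proteases and block it. In the cochlea, collagens and proteoglycans make up much of the basilar membrane, the spiral ligament and the spiral limbus, and the miR-29 family is best known for pairing with mRNAs of matrix proteins.

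The miR-29 sequences are shown because the mice lack one of them and because their shared seed was looked for in the members. The entries in RefSeq on GRCm38.p6 place miR-29a-3p at chr6:31062673-31062694 on the minus strand, next to a copy of miR-29b-3p at chr6:31063025-31063047, and miR-29c-3p at chr1:195037600-195037621 on the plus strand. Capitals mark the seed, bases 2 to 8, which is the same in all of them. MiR-29a itself is not among the genes listed, so the genotype labels could not be checked against it.
miR-29a-3p: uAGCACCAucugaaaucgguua
miR-29b-3p: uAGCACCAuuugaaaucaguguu
miR-29c-3p: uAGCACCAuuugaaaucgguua

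The libraries had column totals of 249221 to 288695 FPKM and relative depths of 0.949 to 1.17 times their median, as read from the smallest values. Markers of hair cells, of supporting cells and of the stria vascularis were above 0 in all 8 libraries (8 of 8 genes in each list). Marrow and bone markers were present too. Skeletal muscle markers summed to 0.594 to 10.01 FPKM in WT and to 4.41, 2.98, 322 and 37.1 FPKM in KO1 to KO4, and cartilage markers to 183 FPKM in WT1 and 314 to 444 FPKM in the other 7 libraries. The summed level of 16 neutrophil lineage genes was 76.8 to 11445 FPKM in WT and 2023 to 5987 FPKM in KO, with its highest value in WT1 and its lowest in WT3, where the neutrophil protease gene Ctsg was at 0. These WT libraries stood furthest apart, with a correlation of 0.725 across genes on the log2 scale, the lowest of any pair of libraries. Results are therefore also given without WT1, or without both.

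The genes with the highest levels were the inhibitors Timp3 (98.9 FPKM, mean of 8 libraries), which is bound to the matrix, and Timp2, followed by the gelatinase Mmp9 (60.4 FPKM). Timp3, at chr10:86300372-86349506 on the plus strand, was at 79.1, 81.6, 118 and 86.5 FPKM in WT1 to WT4 and at 103, 128, 109 and 85.1 FPKM in KO1 to KO4. Timp2, which besides inhibition takes part in the activation of pro-Mmp2 by Mmp14, was at 47.3, 65.7, 80.2 and 67.2 FPKM in WT and at 65.1, 88.1, 74.2 and 60.2 FPKM in KO. The groups overlapped for both. The mean level of the tested members ran from 0.824 FPKM (Mmp17) upward, and a single MMP, ADAMTS or ADAMTSL gene had a mean of at most 60.4, 19.4 and 11.5 FPKM, respectively. Just inside the limit of 0.5 FPKM were Mmp17 (0.824) and Adamtsl2 (0.852), and just outside were Mmp12 (0.402) and Adamts16 (0.351). The 12 genes that were not tested had means of 0 to 0.402 FPKM, and Mmp1a, Mmp1b and Mmp10 were listed at 0 in all libraries.

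**Figure D1:**
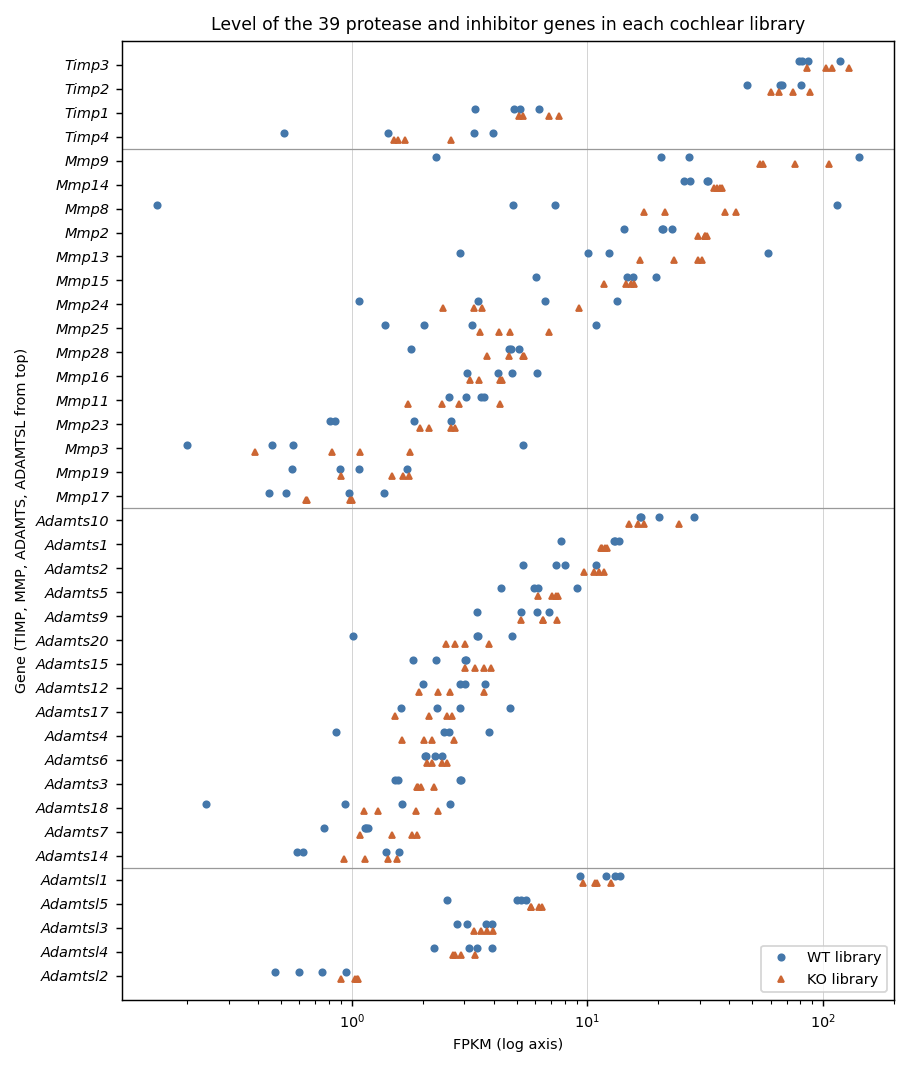
Each point is the level of 1 gene in 1 library in FPKM, on a log axis, for the 39 tested genes in 4 classes, with circles for the 4 WT and triangles for the 4 KO libraries. Timp3 and Timp2 are highest, and the WT points of Mmp8, Mmp9 and Mmp13 lie on both sides of the KO points.

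When WT and KO were compared, 3 of the 39 members were significantly higher in KO at an unadjusted p-value under 0.05, the threshold of the study, and none was lower. They were the gelatinase Mmp2, the membrane-type protease Mmp14, which activates pro-Mmp2, and Adamts2, which removes the amino propeptide of fibrillar procollagens. These 3 are 7.69% of the members. Of all 14990 genes tested, 4.61% were higher and 0.507% lower in KO by the same rule. No member passed after Benjamini-Hochberg adjustment over all tested genes in limma, where adjusted p ran from 0.922 to 0.9996, and the smallest adjusted p of any gene was 0.558. Levels in WT and KO did not overlap for Mmp2, Mmp14 and Adamtsl5, all higher in KO, which is again 7.69% of the members, against 3.02% of all genes higher and 0.487% lower.

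Mmp2, at chr8:92827291-92853734 on the plus strand of GRCm38, was at 20.6, 21.0, 14.3 and 22.9 FPKM in WT1 to WT4 and at 31.5, 32.1, 31.4 and 29.5 FPKM in KO1 to KO4. In GENCODE mouse release 21 the gene ends at 92853420. Every KO library was above every WT library, and the KO libraries lay close together (31.1 ± 1.12 against 19.7 ± 3.73 FPKM in WT, SD, n = 4 each). The log2 fold change of FPKM plus 0.1 was 0.68 ± 0.16 (SE, limma adjusted p = 0.922). It was 0.71 without WT1 (limma adjusted p = 0.145) and 0.50 without WT1 and WT3, and Mmp2 passed the unadjusted threshold in all 18 alternatives.

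Mmp14, at chr14:54431612-54445364 on the plus strand, was at 27.3, 32.5, 25.6 and 32.2 FPKM in WT and at 36.5, 34.3, 37.3 and 35.5 FPKM in KO. The groups lay side by side without overlap, with 1.87 FPKM between the highest WT and the lowest KO library. The log2 fold change was 0.30 ± 0.13 (SE, limma adjusted p = 0.947). Mmp14 passed the threshold in 5 of the 18 alternatives. It passed in neither the median-ratio scaling (log2 fold change 0.20) nor the fit without WT1 (0.26). Without WT1 and WT3 the log2 fold change was 0.15, and Mmp14 did not pass either.

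Adamts2, at chr11:50602084-50807573 on the plus strand, was at 5.34, 7.999, 7.38 and 10.8 FPKM in WT and at 9.71, 11.2, 10.7 and 11.7 FPKM in KO. WT1, which was also lowest for the cartilage markers, was the lowest library, and WT4 lay within the KO range. The log2 fold change was 0.49 ± 0.21 (SE, limma adjusted p = 0.947), and 0.32 without WT1, where it did not pass (limma adjusted p = 0.298). It passed in 8 of the 18 alternatives. Its nearest relatives in function, Adamts3 and Adamts14, which process procollagens too, had log2 fold changes of -0.08 and 0.34 that did not pass.

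**Figure D2:**
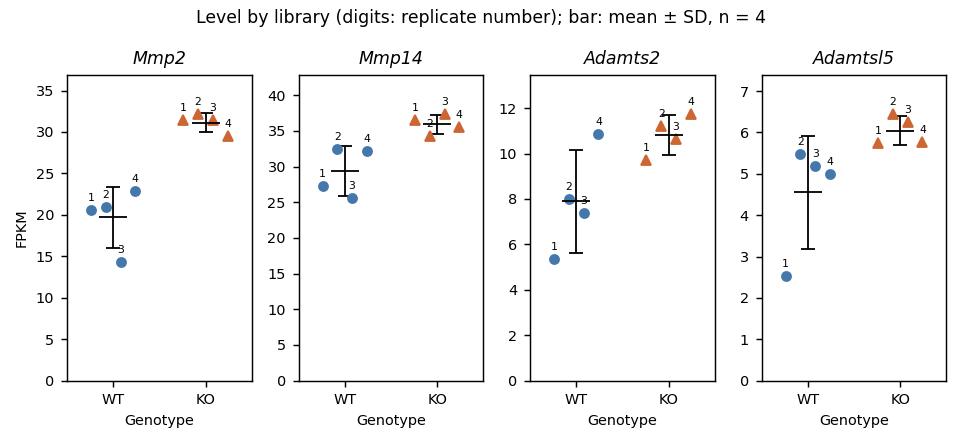
Level in FPKM of the 3 genes that passed the threshold and of Adamtsl5 in each library, numbered by replicate, with the mean and SD of 4 libraries per genotype. KO points lie above all WT points for Mmp2, Mmp14 and Adamtsl5, and WT4 reaches the KO points for Adamts2.

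Type I collagen RNA was higher in the same libraries, while most fibroblast markers did not pass. The summed level of 9 fibroblast markers was 451 to 666 FPKM in WT and 833 to 1127 FPKM in KO, without overlap, and none of its genes was at 0. All 9 markers had log2 fold changes above 0, with a median of 0.33, against 66.5% and 0.10 for all genes. After median-ratio scaling, 6 of them were above 0. Without WT1 and WT3, 4 of the 9 were higher by the threshold, against 9.17% of all genes. With all libraries, 2 of the 9 markers passed (22.2%, against 4.61% of all genes), the type I collagen genes Col1a1 and Col1a2. The sum of the other 7, a list shortened after the data were seen, was 205 to 306 FPKM in WT and 247 to 319 FPKM in KO and overlapped. Mmp2 per 1000 FPKM of the full fibroblast sum was 31.5 to 36.0 in WT and 28.5 to 37.8 in KO. Per 1000 FPKM of the shortened sum it was 49.0 to 111 and 98.5 to 120. Both pairs of ranges overlapped. Mmp14 per 1000 FPKM of the full sum was 47.5 to 56.7 in WT and 30.5 to 43.8 in KO, lower in KO and without overlap, and 87.6 to 157 and 110 to 144 with the shortened sum. Adamts2 was 9.31 to 16.9 and 9.93 to 11.8 per 1000 FPKM of the full sum, with overlap. With the shortened sum it was 17.4 to 52.8 in WT and 33.4 to 47.5 in KO, again with overlap. For Mmp14 the groups were thus separate with the full sum and overlapped with the shortened one. The full sum holds Col1a1 and Col1a2, which were higher in KO (log2 fold changes 1.28 and 1.16). A ratio to the full sum is lowered in KO by their rise alone, so it cannot show the level of Mmp14 per fibroblast. The part of fibroblast number in the values of these 3 genes was not tested.

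The neutrophil-associated MMPs varied widely between libraries, most of all between WT libraries, and did not pass the test with 8 libraries. Mmp8, the neutrophil collagenase, was at 115, 4.85, 0.149 and 7.30 FPKM in WT1 to WT4 and at 38.3, 21.3, 42.7 and 17.4 FPKM in KO1 to KO4. Mmp9, a gelatinase stored in neutrophil granules and made by osteoclasts, was at 142, 20.6, 2.27 and 26.9 FPKM in WT and at 76.1, 55.8, 105 and 53.8 FPKM in KO. For both genes WT1 lay above and the other WT libraries lay below every KO library. Mmp25, a membrane-anchored protease of leukocytes, was at 10.9, 2.02, 1.39 and 3.24 FPKM in WT and at 4.68, 4.19, 6.85 and 3.501 FPKM in KO. Mmp13, a collagenase of bone and cartilage, was at 58.2, 10.1, 2.89 and 12.4 FPKM in WT and at 23.4, 29.5, 30.6 and 16.7 FPKM in KO. They showed the same arrangement, with WT1 highest and WT3 lowest.

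With all libraries, the log2 fold changes were 2.30 ± 1.54 for Mmp8, 1.75 ± 1.03 for Mmp9, 1.01 ± 0.76 for Mmp13 and 0.54 ± 0.57 for Mmp25 (SE), and none passed (limma adjusted p = 0.947 for the first 3 and 0.968 for Mmp25). On the linear scale the mean of Mmp8 was 31.8 FPKM in WT and 29.9 FPKM in KO, so its sign rests on the log scale. Without WT1 they were 3.74, 2.68, 1.76 and 1.12, and all 4 genes passed the unadjusted threshold, though not the adjusted one (limma adjusted p = 0.148 for each). Without WT3 they were 0.79, 0.71, 0.33 and 0.16, and none passed (limma adjusted p = 0.952 for Mmp8). Together with Mmp2 this made 5 of 39 members higher and 0 lower without WT1. In that fit, 12.1% of all genes were higher and 7.4% lower, so the share of members that were higher (12.8%) was near that of all genes.

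The order of the libraries was shared with neutrophil RNA. From highest to lowest, the 8 libraries stood in the order WT1, KO3, KO1, KO2, KO4, WT4, WT2 and WT3 for the neutrophil sum, and Mmp8, Mmp9 and Mmp25 followed that order in 8 of 8 positions. Mmp13 shared 6 of 8 positions. Of the 16 neutrophil markers, 0 passed with all libraries. Without WT1, 16 were higher in KO (against 12.1% of all genes), and 0 of the markers passed without WT3. Their median log2 fold change was 2.32, 3.39 and 0.70 in these fits, and 4 passed without WT1 when the replicate number was a block. Without both WT1 and WT3, 16 were higher in KO, with a median of 1.83, against 9.17% of all genes higher. Mmp9 per 1000 FPKM of the neutrophil sum was 12.4 to 29.6 in WT and 17.6 to 26.6 in KO, and Mmp8 was 1.95 to 10.04 and 7.13 to 9.69, so that the groups overlapped. Mmp25 was 0.951 to 18.1 in WT, with the top value in WT3 and the lowest in WT1, and 1.14 to 1.73 in KO, so it shared the order of the neutrophil sum but was not in proportion to it. Osteoclast markers (20.9 to 189 FPKM in WT, 115 to 237 FPKM in KO) and osteoblast and osteocyte markers (68.1 to 662 and 317 to 545 FPKM) were also lowest in WT3, and WT1 was highest for the osteoblast and osteocyte sum and behind KO3 alone for the osteoclast sum. The arrangement of Mmp9 and Mmp13 was thus shared in part with bone markers too. How much of the Mmp8, Mmp9, Mmp13 and Mmp25 signal these cells gave was not tested.

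**Figure D3:**
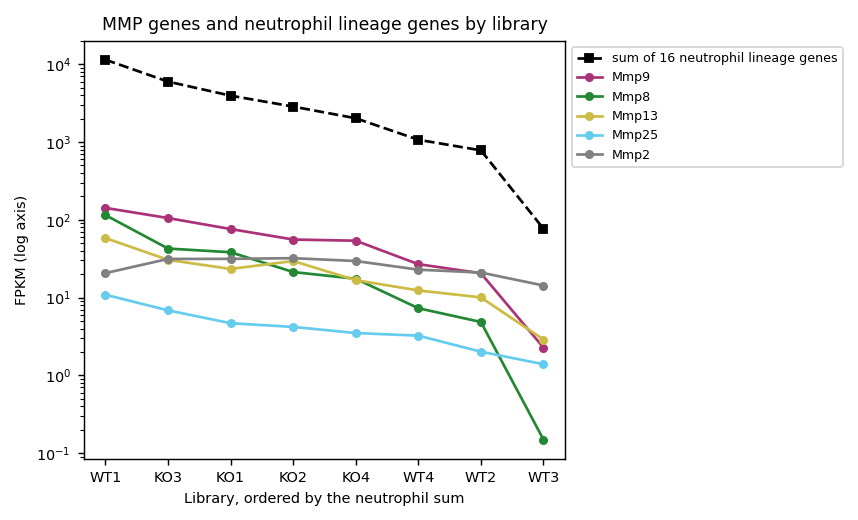
Level in FPKM, on a log axis, of 5 MMP genes and of the sum of 16 neutrophil lineage genes in each library, with the libraries ordered by that sum. Mmp8, Mmp9 and Mmp25 fall along the whole order from WT1 to WT3, and Mmp2 does not.

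The share of MMP RNA that came from these 4 genes differed between libraries. They made up 83.2, 27.2, 7.54 and 34.2% of the summed MMP level in WT1 to WT4 and 59.5, 51.6, 64.3 and 45.8% in KO1 to KO4. The sum of all 15 MMP genes was 88.8 to 392 FPKM in WT and 200 to 288 FPKM in KO, with WT1 at the top and WT3 at the bottom. Without the 4 genes it was 66.03, 100.3, 82.1 and 95.7 FPKM in WT and 97.1, 104, 103 and 108 FPKM in KO, and WT2 alone reached the KO range. The summed TIMP level was 133 to 203 FPKM in WT and 153 to 225 FPKM in KO.

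**Figure D4:**
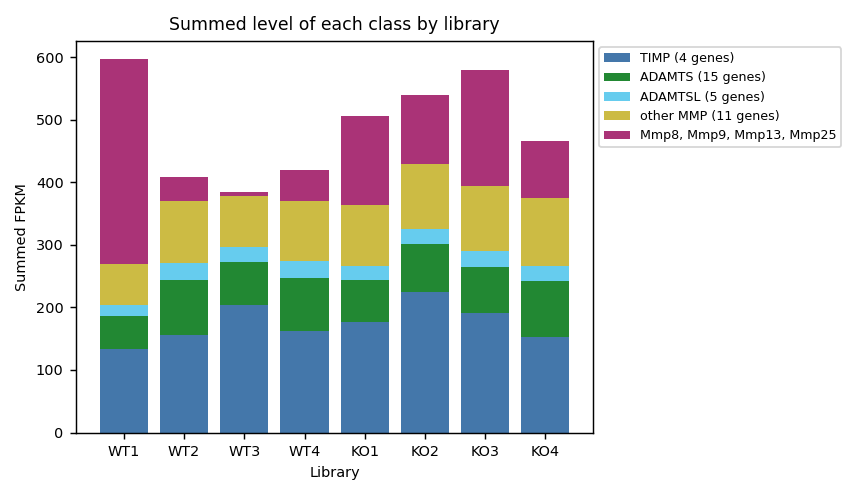
Summed level in FPKM of the tested genes of each class in each library, stacked from 0, with Mmp8, Mmp9, Mmp13 and Mmp25 drawn apart from the other MMP genes. The upper segment is 326 FPKM in WT1 and 6.70 FPKM in WT3, whereas the other MMP genes are at 66.03 to 108 FPKM in all libraries.

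Apart from Mmp2 and Mmp14, none of the other MMP genes passed. Mmp15, a membrane-type protease, was at 6.06, 15.6, 19.6 and 14.7 FPKM in WT and at 11.7, 15.8, 15.3 and 14.6 FPKM in KO, with WT1 lowest. Mmp24, a membrane-type protease known from neurons, was at 1.08, 13.3, 3.45 and 6.62 FPKM in WT and at 2.45, 3.58, 3.30 and 9.20 FPKM in KO, and the groups overlapped (log2 fold change -0.08 ± 0.72, SE). Mmp3, stromelysin, was at 0.562, 0.1996, 5.35 and 0.461 FPKM in WT and at 1.77, 1.08, 0.387 and 0.820 FPKM in KO, with its highest value in WT3. Over all 15 MMP genes the log2 fold change ran from -0.24 to 2.30, with a median of 0.32, and 12 were above 0. Without Mmp8, Mmp9, Mmp13 and Mmp25 it ran from -0.24 (Mmp11) to 0.74 (Mmp23).

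Of the 15 ADAMTS genes tested, 1 (Adamts2) was higher (6.67%, near the 4.61% of all genes) and 0 were lower. The log2 fold change ran from -0.29 to 0.58 with a median of 0.11, and 10 of 15 were above 0. The median was 0.02 without WT1, with 8 of 15 above 0. It was -0.19 without WT1 and WT3, with 4 of 15 above 0. Adamts10, which acts on fibrillin microfibrils and had the highest mean level of the class, was at 16.9, 28.3, 16.6 and 20.1 FPKM in WT and at 14.99, 16.4, 17.3 and 24.4 FPKM in KO (log2 fold change -0.16 ± 0.22, SE). Adamts1, an aggrecanase and versicanase, was at 7.71, 13.0, 12.9 and 13.7 FPKM in WT and at 11.5, 11.8, 12.0 and 11.4 FPKM in KO, and WT1 lay apart from the other 7 libraries. The main aggrecanases of cartilage, Adamts4 and Adamts5, had log2 fold changes of -0.03 ± 0.42 and 0.19 ± 0.22 (SE). The values listed for Adamts7 come from a region that extends over its neighbour Tbc1d2b, so reads of both genes may be counted there.

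No ADAMTSL gene passed. Adamtsl5 was at 2.53, 5.47, 5.20 and 5.003 FPKM in WT and at 5.74, 6.44, 6.25 and 5.77 FPKM in KO, so the groups did not overlap, and WT1 was well below the other WT libraries. Its log2 fold change was 0.46 ± 0.25 (SE, limma adjusted p = 0.947), and 0.21 without WT1. The row for Adamtsl5 (chr10:80337037-80349016) reaches beyond the gene in GENCODE (chr10:80339110-80348412) on both sides. Adamtsl1, the most abundant of the class, was at 9.34, 13.0, 12.0 and 13.7 FPKM in WT and at 9.54, 10.99, 10.8 and 12.6 FPKM in KO. Its row overlaps that of Sh3gl2 on the same strand, whose level was 21.9 to 49.0 FPKM in WT and 28.2 to 46.2 FPKM in KO. Adamtsl3, whose mean level was below those of Adamtsl1 and Adamtsl5, had a log2 fold change of 0.11 ± 0.18 (SE).

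None of the 4 inhibitors passed the test. The log2 fold changes were 0.22 ± 0.19 for Timp3, 0.15 ± 0.20 for Timp2, 0.35 ± 0.23 for Timp1 and 0.00 ± 0.57 for Timp4 (SE). Timp1, an inducible inhibitor, was at 6.24, 5.17, 3.33 and 4.86 FPKM in WT and at 6.87, 7.55, 5.30 and 5.12 FPKM in KO. Timp4 was at 0.513, 3.99, 1.43 and 3.30 FPKM in WT and at 1.56, 1.51, 1.69 and 2.64 FPKM in KO, and the WT values lay on both sides of the KO values. Timp1, Timp3 and Timp4 lie inside the synapsin genes Syn1, Syn3 and Syn2 on the opposite strand. The libraries kept strand, but whether the counting used it is not given in the sources used here. The row for Timp1 reaches across Syn1 (chrX:20861900-20921108, against chrX:20870166-20874735 in GENCODE), and its values may include reads of Syn1. Syn2 was at 4.88, 19.8, 14.6 and 17.6 FPKM in WT1 to WT4 and at 7.29, 11.001, 9.26 and 14.6 FPKM in KO1 to KO4, and had WT1 as its lowest and WT2 as its highest library, as Timp4 did, whereas WT3 was low for Timp4 and not for Syn2.

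Over all members the median log2 fold change was 0.19, and 29 of 39 were above 0. For all tested genes the median was 0.10, with 66.5% above 0. Without WT1 the median was 0.038 for the members, with 23 of 39 above 0. For all genes it was -0.024 in that fit, with 46.7% above 0. Without WT1 and WT3 the medians were -0.031 for the members and -0.025 for all genes. Above 0 were then 18 of 39 members and 46.4% of all genes. After median-ratio scaling of all 8 libraries, the median over all genes was 0.0046, and 25 of 39 members were above 0. By that fit, 2 members were higher (Mmp2 and Adamts2), against 2.68% of all genes higher and 2.42% lower. That scaling changed the share of calls that were higher, from 90.1% to 52.6% of all genes called. The spread between WT libraries exceeded that between KO libraries for 35 of 39 members (89.7%) and for 77.7% of all genes. The median SD on the log2 scale was 0.44 in WT and 0.24 in KO for the members, near the 0.42 and 0.24 of all genes. WT1 was the lowest library for 19 members (48.7%), near the 52.1% of all genes. WT3 was lowest for 15 members (38.5%), against 19.7% of all genes.

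With WT1 and WT3 both left out, WT2 and WT4 were compared with 4 KO libraries. By this fit, 5 members were higher (Mmp2, Mmp8, Mmp9, Mmp13 and Mmp25) and 5 were lower (Mmp16, Mmp24, Adamts3, Adamts17 and Timp4), against 9.17% of all genes higher and 6.97% lower. The log2 fold changes of the lower members were -0.51, -1.19, -0.51, -0.74 and -0.97.

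**Figure D5:**
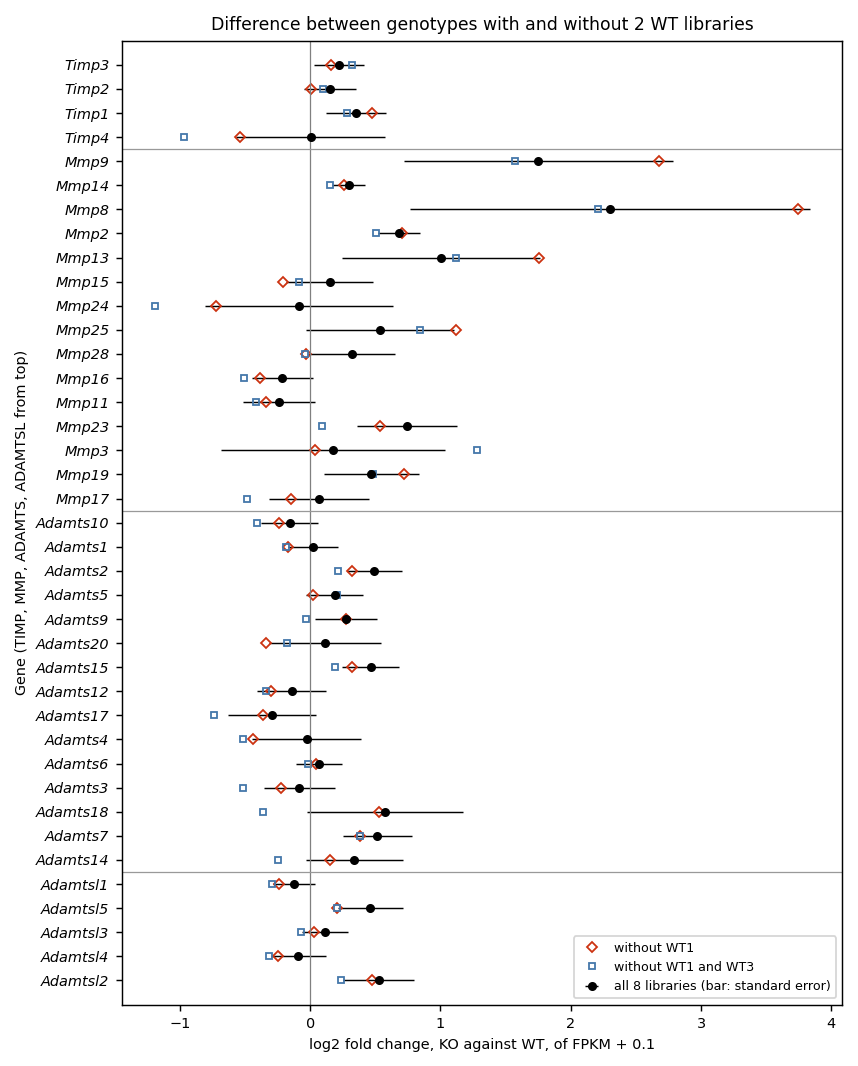
Log2 fold change of KO against WT for each of the 39 tested genes, with all 8 libraries (circles, bars are standard errors), without WT1 (diamonds) and without WT1 and WT3 (squares). Mmp8 moves from 2.30 to 3.74 without WT1, Mmp2 stays between 0.50 and 0.71, and Timp4 moves from 0.00 to -0.97 without both.

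The sequence TGGTGCT, which pairs with the miR-29 seed, was searched on the sense strand of the longest protein-coding 3′-UTR in GENCODE mouse release 21. It was in 12 of 39 members (30.8%) and in 15.5% of 14832 tested genes with a 3′-UTR. The members' 3′-UTRs were longer, with a median of 1843 bases against 1181. The 8-base form, TGGTGCTA, was in 5 members (12.8%) and in 3.38% of the genes. The match was in 9 of 15 ADAMTS genes, 3 of 15 MMP genes (Mmp2, Mmp13 and Mmp24) and none of the 5 ADAMTSL and 4 TIMP genes. The median log2 fold change was 0.19 in the members with a match and 0.19 in those without, and 0.07 and 0.26 for the 8-base form. A match is a sequence description, and binding was not measured.

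Of the 3 called genes, Mmp2 and Adamts2 hold a match and Mmp14 does not. Their sites, and 1 or 2 of the 8-base sites of each member that holds one, are shown with the match in capitals. Mmp2 has 1 site, at bases 258 to 264 of a 3′-UTR of 755 bases (chr8:92852923-92852929). Adamts2 has 4 sites in 3544 bases (the first at chr11:50804967-50804973), and Adamts12 has 4 in 3554 bases, the pair shown being 15 bases apart (chr15:11347277-11347283 and chr15:11347292-11347298). The sites of Adamts17 (chr7:67152303-67152309), Adamts20 (chr15:94321864-94321870), Adamts6 (chr13:104495696-104495702) and Adamts9 (chr6:92773490-92773496) are each followed by an A. The site counted for Adamts10 is in a short transcript (chr17:33530496-33530502), and the 3′-UTR of another transcript of that gene holds an 8-base match (chr17:33553691-33553697). The sites counted for Adamts20 also lie inside the gene (chr15:94270163-94465418, minus strand), far from its 3′ end. No match was found elsewhere in its transcripts, so the place of Adamts20 in the counts above rests on that transcript.
Mmp2: cctctgggctgcccTGGTGCTc
Adamts2 site at base 938: gcagtttcaaaaccTGGTGCTc
Adamts2 site at base 2422: acaccagataaagaTGGTGCTt
Adamts2 site at base 2901: ctctccagagttagTGGTGCTc
Adamts2 site at base 3333: tttaagtatataaaTGGTGCTt
Adamts12 site at base 1600: tccattcagcagaaTGGTGCTa
Adamts12 site at base 1615: ggtgctattgaactTGGTGCTa
Adamts17: gtctctcagtcttaTGGTGCTa
Adamts20: gcttctgagctccaTGGTGCTa
Adamts6: aaggacagttaactTGGTGCTa
Adamts9: gaattgtgctgcctTGGTGCTa
Adamts10 site in the other transcript, not counted: gccgttccccatcaTGGTGCTa

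Of these genes, Mmp2 and Adamts2 had higher levels in KO (above), while Adamts12 with 3 8-base matches was at 1.997, 3.69, 3.01 and 2.89 FPKM in WT and at 1.92, 2.32, 2.60 and 3.65 FPKM in KO, with overlap (log2 fold change -0.14 ± 0.26, SE). Adamts17 had -0.29 ± 0.34, Adamts20 0.11 ± 0.43, Adamts6 0.07 ± 0.18 and Adamts9 0.27 ± 0.24 (log2 fold change, SE). Adamts15 and Adamts18, which hold 7-base matches, had 0.46 ± 0.22 and 0.58 ± 0.60. Adamts18 was lowest in WT3 (0.241 FPKM). Its log2 fold change was 0.53 without WT1, -0.003 without WT3 and -0.36 without both. The 3 members with 3 or more matches thus had log2 fold changes of -0.29, -0.14 and 0.49.

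The AP-1 motif, TGAGTCA or TGACTCA, is known from the promoters of inducible MMP genes and was searched on both strands of the RefSeq promoters (GRCm38.p6, windows of 300 bases that end 50 bases after the start of the gene). Of the 39 members, 27 had an entry. The motif was in 2 of them, Mmp13 and Mmp3, and in 4.59% of the 11625 tested genes with an entry (5.20% of all 32851 promoters). It starts 35 bases before the start of Mmp13 (chr9:7272470-7272494 shown) and 46 bases before that of Mmp3 (chr9:7445767-7445791).
Mmp13 promoter: ccaaagtggTGACTCAtcactatca
Mmp3 promoter: aagcaattaTGAGTCAgttttcggg

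Among 49 other genes of matrix proteolysis, 42 were tested, 4 were higher (9.52%) and 1 was lower (2.38%) in KO, against 4.61% and 0.507% of all genes. The sheddase gene Adam17 was at 9.31, 10.2, 9.83 and 9.23 FPKM in WT and at 13.7, 13.8, 13.6 and 12.2 FPKM in KO, without overlap (log2 fold change 0.46 ± 0.12, SE, limma adjusted p = 0.922). Adam19 (0.81 ± 0.24), Prss23 (0.40 ± 0.16) and Ctsk, the collagen-degrading cathepsin of osteoclasts (1.72 ± 0.59), were higher too, and A2m, the broad protease inhibitor alpha-2-macroglobulin, was lower (-0.84 ± 0.19). None passed after adjustment. Without WT1, 7 of the 42 were higher (16.7%) and 3 lower (7.14%), against 12.1% and 7.4% of all genes. Ctsk is among the osteoclast markers, which were lowest in WT3.

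Of 32 substrate genes of these proteases, 30 were tested, 8 were higher (26.7%) and 0 lower, against 4.61% and 0.507% of all genes. Without WT1, 13 were higher (43.3%) and 2 lower (6.67%), against 12.1% and 7.4%, so the share that was lower was near that of all genes. The 5 with the smallest p-values were Col3a1 (log2 fold change 1.09 ± 0.16, SE), the microfibril gene Fbn1 (0.73 ± 0.15), Col4a2 (1.29 ± 0.31), Col1a2 (1.16 ± 0.28) and Col4a1 (1.32 ± 0.33). Several are known miR-29 targets, and the list was made with earlier results in view, so it is no independent evidence of its direction. The 2 lower without WT1 were the proteoglycan genes Acan and Bcan, named after their values were seen. Acan was at 5.004, 7.93, 10.02 and 8.31 FPKM in WT and at 5.87, 5.23, 6.73 and 7.39 FPKM in KO. Its log2 fold change was -0.27 with all libraries, where it did not pass, and -0.47 without WT1. That of Bcan was -0.01 and -0.48. Acan is also among the 11 cartilage markers tested, of which 4 were lower (36.4%) and 1 was higher without WT1. Of 8 markers of the stria vascularis and lateral wall, 4 were lower (50%) and 0 higher in that fit. Other lists went the other way there, with 6 of 7 osteoclast markers higher (85.7%) and 0 lower. Of 11 osteoblast and osteocyte markers 5 were higher (45.5%), and of 9 fibroblast markers 3 (33.3%), with 0 lower in each. Among 8 hair cell markers 1 was higher and 0 lower, and among 8 supporting cell markers 0 were higher and 1 lower. Without WT1 and WT3, 11 of the 30 substrate genes were higher and 0 lower, against 9.17% and 6.97% of all genes.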

How the data were processed

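RNA was measured in 8 cochlear libraries, 4 per genotype, grouped by the sample titles. Per the methods of the study, reads were aligned by Hisat2, and the authors deposited one FPKM value for each gene in each library. The tool and annotation behind the FPKM are not given in the sources used here. The labels name mm9, but 19771 of 21760 matched genes had the GRCm38 coordinates of GENCODE mouse release 21. All per-sample columns were used (0 left out), and 27 symbols that had become dates were restored. Counts were not used here, so the counting error is unknown, and the authors' DESeq2 test on counts was not repeated.

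For genes with a mean of at least 0.5 FPKM, values were taken as log2(FPKM + 0.1) and compared by limma (version 3.58.1, R version 4.3.3, moderated variances with a mean-variance trend, genotype only, two-sided). A fold change on this scale understates the change of low genes. A gene was called at an unadjusted p under 0.05, with Benjamini-Hochberg adjustment over all tested genes beside it. The fit was tested on simulated data. Named members were those called, those without overlap between genotypes, the 3 highest per class, all TIMPs, those next to the FPKM limit and those with a seed match, and up to 5 called genes per other list. Mmp3, Mmp11, Mmp15, Mmp16, Mmp23, Mmp25, Mmp28, Adamts3, Adamts4, Adamts5, Adamts7 and Adamts14 were named after their values were seen. These families and the other lists, and so the members, were chosen with earlier results of these data known, and the symbol rule itself uses no measured value. Alternatives were other pseudocounts, filters, scalings and variances, a replicate block, replicates 1 to 3 only (the study gives 3 per group and does not name them), and leaving out libraries. Tables and plots were made in Python 3.11.15 with pandas 2.3.3 and matplotlib 3.10.9.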

Additional observations from a re-analysis of the deposited data

Results flagged for a closer look

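In 4 of 78 groups of 4 libraries, 1 library lay far from the other 3 on the scale of log2(FPKM + 0.1), by a gap whose share of the whole range exceeded the critical value of Dixon's test. Chance gives about 1 in 20 such groups. In all 4 cases the library was WT1 and it was the lowest. On that log2 scale the gap was 0.924 of the range for Adamts7 (0.761 FPKM in WT1), 0.909 for Mmp28 (1.79 FPKM), 0.900 for Adamts1 (7.71 FPKM) and 0.884 for Adamtsl5 (2.53 FPKM).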

How the results depend on the processing

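Mmp2 kept its direction and its side of the threshold in all 18 alternatives (log2 fold change 0.50 to 0.78). The count of 3 members higher ranged from 1 to 5 when 1 library was left out, with 1 without WT3, KO2, KO3 or KO4 and 5 without WT1, and was 5 with no filter on low values. It was 5 without WT1 and WT3, where the 0 members lower became 5 and Timp4 turned to -0.97. Members lower stayed at 0 when 1 library was left out (range 0 to 0). Over all genes, 691 were higher and 76 lower. With 1 library left out these ranged from 292 to 1810 and from 35 to 1112, both highest without WT1, while 323 were higher without KO2 and 292 without KO3. Higher and lower genes numbered 1381 and 1049 without WT1 and WT3, 401 and 362 with median-ratio scaling, and 378 and 547 with quantile normalization. There were 208 lower with no filter and 42 with replicates 1 to 3. Other proteolysis genes called (5) were 3 to 10 with 1 library left out, highest without WT1 and lowest without KO3, and 9 without WT1 and WT3, and substrate genes called (8) were 7 to 15, highest without WT1. The 8-base seed match held in 5 members, not 12. The causes were not tested.

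Same-numbered libraries deviated together for numbers 1 and 4 and not for 2 and 3 (correlations 0.419, -0.240, -0.170 and 0.210 for numbers 1 to 4), so the numbers were not taken as pairs. With the replicate block, 3 members were higher and 0 lower, but Mmp14 no longer passed and Mmp23 did, so that 2 of the 3 called members stayed called, and 738 genes were higher and 100 lower. With the block and without WT1, 4 members were higher and 0 lower, and the genes higher and lower numbered 1131 and 564. FPKM carry no counts, so the part of counting depth in low genes is unknown.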
